A study of Bos taurus with 4 samples.

Results

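The BCL2 family of apoptosis regulators was described in buffalo spermatozoa through 8 of its genes, namely BCL2, BCL2L1, MCL1, BAX, BAK1, BCL2L11, BAD and BID. Members were all non-control probes on the array that carry one of these gene names, without regard to their values. They were 17 probes of 8 genes among 51282 probes with 32429 gene names, and each was printed as 1 spot. Sperm RNA came from Murrah buffalo breeding bulls, rated by adjusted field conception rate. Bulls rated high-fertile gave 2 pools of 2 bulls each and bulls rated low-fertile gave 2 further such pools, so there were 2 arrays per group. All pools held RNA of Percoll-selected spermatozoa, were labelled with the dye Cy3 from an oligo dT primer and were hybridised to 1 slide. The organism field of the samples names cattle (Bos taurus), the species of the array. Its probes were designed on cattle transcripts, and the effect of sequence differences between cattle and buffalo on their signal was not tested. No ages of the bulls were given, and no label says which bull is in which pool.

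The BCL2 family controls whether the outer mitochondrial membrane stays intact. Survival members (BCL2, BCL2L1 and MCL1) hold the pore-forming effectors BAX and BAK1 in check. The BH3-only members (BCL2L11, BAD and BID) sense stress or lost survival signals, and either block the survival members or activate the effectors. In the testis the family decides how many germ cells are removed during spermatogenesis, whereas mature spermatozoa transcribe little or nothing, so that their RNA is mostly what earlier germ cells left behind.

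Each probe is a 60-base stretch of a transcript. For the 4 below, the probe sequence is given as the files hold it, 5′ to 3′ on the transcript strand, because these probes, above background on all 4 arrays, carry the values given for BCL2, BCL2L1, BAX and BID. Capitals mark whole codons where just 1 of the 3 forward frames has no stop codon, and BAX and BID are in lower case because more than 1 frame is open. These frames are a description, since no annotated coding bounds were used here.
BCL2 (transcript position 563, Btau_3.1 chr24:64012021-64012080, minus strand): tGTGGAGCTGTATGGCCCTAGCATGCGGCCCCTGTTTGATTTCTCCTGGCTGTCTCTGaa
BCL2L1 (transcript position 817, Btau_3.1 chr13:62126846-62126905, minus strand): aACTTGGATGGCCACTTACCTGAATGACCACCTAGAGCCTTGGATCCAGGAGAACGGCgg
BAX (transcript position 513, Btau_3.1 chr18:55543185-55543244, plus strand): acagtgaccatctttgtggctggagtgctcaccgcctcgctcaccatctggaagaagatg
BID (transcript position 507, Btau_3.1 chr5:116159504-116159563, minus strand): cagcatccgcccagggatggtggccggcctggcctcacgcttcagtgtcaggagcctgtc

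The arrays had 75th percentile signals of 32.7 to 37.1 scanner units. Between 13033 and 25642 probes were well above background, the scanner's mark for a spot clearly brighter than its surroundings, with the lowest count on low-fertile pool 2. The groups occupied different rows of the slide, so position and group cannot be told apart. Sperm marker genes were only partly in evidence, since PRM1, ODF1, ACR, TNP1 and CATSPER1 were detected while AKAP3, AKAP4, LDHC and PGK2 had no probe above background on any array. Of the 9 sperm markers tested, 2 were higher in low-fertile pools, and the summed signal of all 18 ran from 928 to 1081 in high-fertile and from 901 to 1108 in low-fertile pools, including PRM2 on high-fertile pool 1 (180 scanner units) and PRM3 on low-fertile pool 1 (168), whose spots lay on bright patches. The summed signal of 13 leukocyte markers was 25770 to 26337 in high-fertile and 30264 to 30865 in low-fertile pools, nearly all of it from LYZ, PTPRC and CD3D, while CD3E and S100A9 were never above background. Of 10 tested, PTPRC was higher (0.78 log2, limma adjusted p = 0.0160) and CD3D lower (-1.05 log2, adjusted p = 0.0102). The sum over 8 epithelial markers was 919 to 923 and 977 to 999, with CLDN3 higher among 6 tested (0.86 log2, adjusted p = 0.0125) and CDH1 and EPCAM never above background. The sum over 5 red cell markers was 297 to 437 and 364 to 380.3, and ALAS2 was never above background. HBB, the 1 called of 3 tested, was higher in low-fertile pools (limma adjusted p = 0.0118). It was not above background on high-fertile pool 1, so it entered the test through the low-fertile arrays, where it is high. The part of other cells in the member values was not tested. In bulk RNA, fewer cells of a type and less RNA per cell cannot be told apart.

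The 11 tested member probes stand for 7 of the genes. None of them reached an adjusted p under 0.05 (limma, Benjamini-Hochberg over 21033 probes), where 26.8% of all tested probes did (9.22% higher and 17.6% lower in low-fertile pools). A probe entered the test if both high-fertile arrays, both low-fertile arrays, or all 4 marked it as well above background. At an unadjusted p of 0.05, limma called 2 of the 11, MCL1 at position 3650 and BID at position 507, against 41.6% of all probes. The t-test of the study's methods called 1 before the same adjustment (28.9% of all probes) and 0 after it, when it called 0 of all 21024 probes. The signs were mostly positive, with 10 differences above 0 and 1 below it. The median low-fertile minus high-fertile difference over the 11 probes was 0.11 on the log2 scale, beside -0.0047 over all probes (quartiles -0.45 and 0.32). In size the median was 0.14, beside 0.37 over all probes. The 95% confidence intervals lay within a 2-fold change either way for 10 of the 11 probes, and within 1.5-fold for 5. Low-fertile pools lay wholly above high-fertile pools for 3 of the 11 (33.6% of all probes), wholly below for 1 (35.5%), and overlapped for 7.

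**Figure D1:**
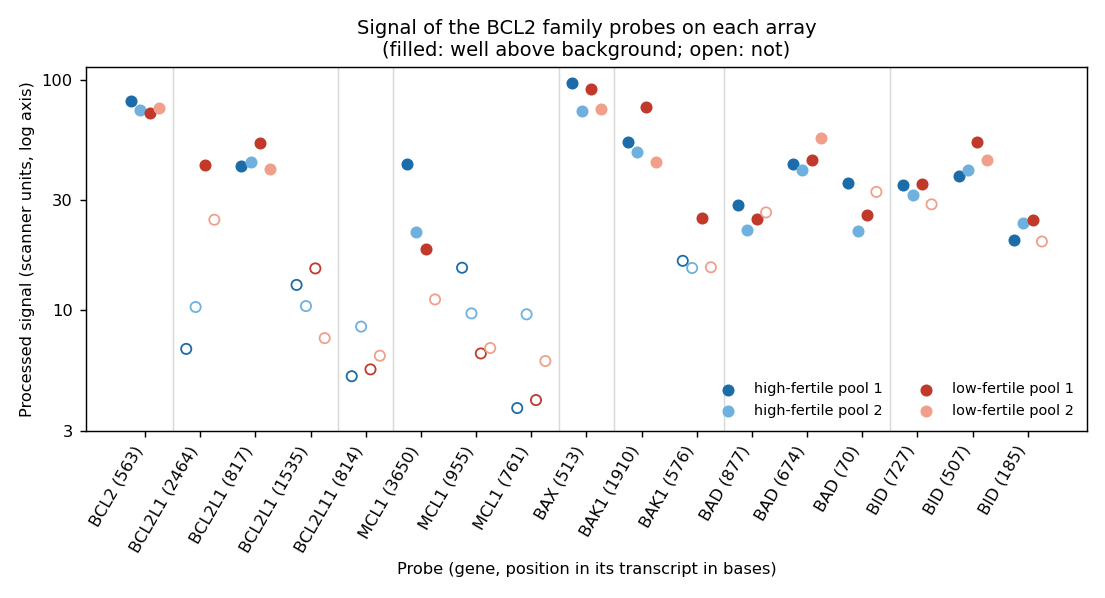
Processed signal in scanner units (log axis) of the 17 BCL2 family probes, named by gene and position in the transcript, on the 4 arrays, with filled points well above background and open points not. BCL2 and BAX have 4 filled points close together, the BCL2L1 probe at 2464 is filled on low-fertile pool 1 alone, and BCL2L11 is open throughout.

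Detection itself was uneven among the members. On all 4 arrays 6 probes were well above background, 1 each for BCL2, BCL2L1, BAX, BAK1, BAD and BID. On 3 arrays it was 5 probes, and for each of these low-fertile pool 2, the array with the fewest probes above background, was the one missing. On 1 array it was 2 probes, and on no array 4. The 4 were the single BCL2L11 probe, 1 of 3 BCL2L1 probes and 2 of 3 MCL1 probes. No member spot was saturated.

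Among the survival members, BCL2, the founding inhibitor of mitochondrial apoptosis, was measured at nearly the same level in all pools. Its processed signal was 80.9 and 73.9 in high-fertile pools 1 and 2, and 71.5 and 75.6 in low-fertile pools 1 and 2. The groups overlapped, and the difference was 0.013 log2 (SE 0.165, 95% interval -0.40 to 0.43, limma adjusted p = 0.958). A change of 1.5-fold or more in BCL2 lay outside this interval.

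BCL2L1 encodes BCL-xL, a survival protein that protects developing germ cells, and its shorter, pro-apoptotic splice form. The probe at position 817, printed above, gave 42.4 and 44.1 in high-fertile pools, against 53.2 and 41.1 in low-fertile pools. After each array was shifted by its 75th percentile, low-fertile pools lay above high-fertile pools by 0.20 log2 (SE 0.151, interval -0.18 to 0.57, adjusted p = 0.365), and this difference did not pass the test. The probe at position 2464 (chr13:62076690-62076749, minus strand) gave 6.79 and 10.3 in high-fertile pools, against 42.6 and 24.7 in low-fertile pools. Only low-fertile pool 1 was well above background there, so that without it no array detected the probe. Both low-fertile values were higher than both high-fertile values. Each high-fertile array was held at its lowest detectable level or its own signal, whichever was higher. The low-fertile mean was then 3.66-fold above the high-fertile mean. It includes low-fertile pool 2, not well above background, so the fold is not a lower limit. This probe was outside the tested set. Fitted with no filter on dim probes, where limma called 0 of 51282 probes, it had an adjusted p of 0.127 (unadjusted p = 0.00375), and with normexp background correction its difference shrank from 2.04 to 0.44 log2. The probe at position 1535 of the transcript (chr13:62077619-62077678), was not above background on any array, at 12.9, 10.4, 15.2 and 7.56. The 3 probes of BCL2L1 thus gave different pictures, and none of the sources used here says which transcript forms each one reads.

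MCL1, a short-lived survival protein, was the single tested member with a lower value in low-fertile pools. At position 3650 (chr3:21670966-21671025, plus strand) the signal was 42.9 and 21.8 in high-fertile pools, against 18.4 and 11.1 in low-fertile pools. The groups did not overlap, but the high-fertile pools differed from each other by about as much as the groups did, and low-fertile pool 2 was not well above background. The difference was -1.01 log2 (SE 0.368, interval -1.93 to -0.09), with an unadjusted p of 0.0366 and an adjusted p of 0.0971 in limma. The probe entered the test through the high-fertile arrays, where it is high. Without high-fertile pool 2 the difference was -1.51 and passed the test (adjusted p = 0.0399), with the lone high-fertile array assumed to vary like the low-fertile pair. Leaving out each pool in turn gave -1.51 to -0.51. It shrank to -0.23 with normexp background correction (adjusted p = 0.238) and to -0.55 with GC correction (adjusted p = 0.334). The other MCL1 probes were never well above background. The probe at position 955, whose 60 bases span 597 bases of the genome, read 15.3, 9.68, 6.49 and 6.85 in the same order of pools. The probe at position 761 read 3.76, 9.59, 4.07 and 6.02. Neither was tested, and no direction is read from them.

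Neither effector gene passed the test. BAX, the effector that moves from the cytosol into the mitochondrial membrane, gave 96.8 and 72.8 in high-fertile and 91.5 and 74.4 in low-fertile pools. Its groups overlapped, with a wider gap inside each group than between them, and the difference was 0.061 log2 (SE 0.193, interval -0.42 to 0.54, adjusted p = 0.832). BAK1, the effector that resides in that membrane, gave 53.5, 48.7, 76.3 and 43.9 at position 1910 (chr23:8033213-8033272, minus strand). Low-fertile pool 1 was the highest, the groups overlapped after the shift, and the difference was 0.27 log2 (SE 0.236, interval -0.32 to 0.86, adjusted p = 0.432). The second BAK1 probe, at position 576, gave 16.4, 15.2, 25.2 and 15.3 and was above background on low-fertile pool 1 alone. Its measured low-fertile level was 1.32-fold higher, untested, and its detection rests on that 1 array.

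The ratio of BCL2 to BAX is often used as a single measure of the balance between survival and death. The BCL2 minus BAX log2 difference was -0.26 (high-fertile pool 1), 0.022 (high-fertile pool 2), -0.35 (low-fertile pool 1) and 0.022 (low-fertile pool 2). Since the probes differ in how brightly they bind, only its change between groups can be read, and that was -0.048 log2 (exact permutation test over the 6 arrangements of the arrays, two-sided, p = 0.667). With 2 arrays per group this test cannot go below 0.333. The value within each group varied more (SD 0.200 in high-fertile and 0.266 in low-fertile pools) than between them.

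**Figure D2:**
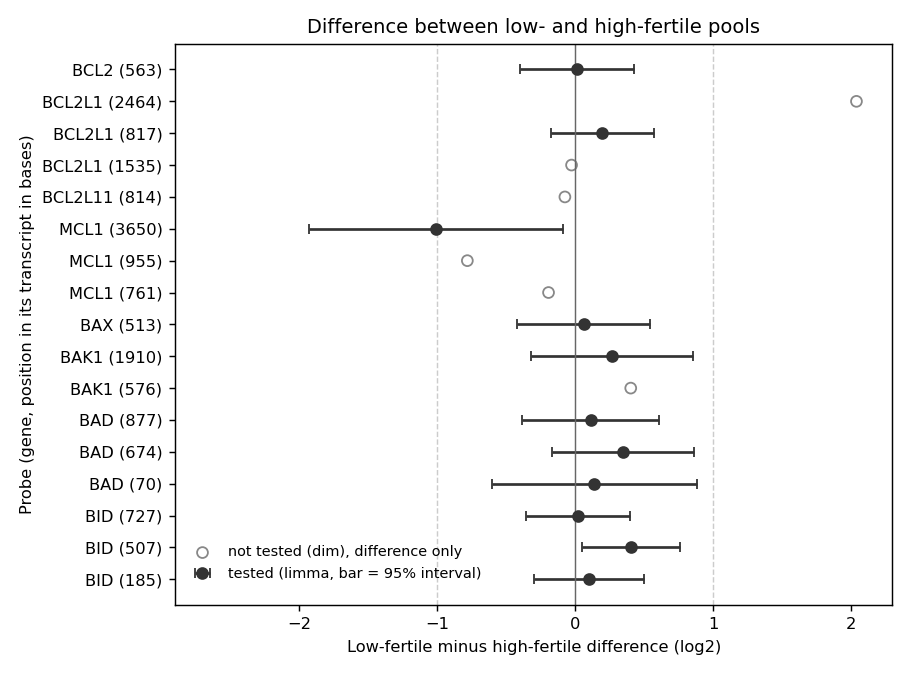
Low-fertile minus high-fertile difference (log2) of each member probe, with 95% confidence intervals for the 11 tested probes (filled) and the bare difference for the 6 untested ones (open), and dashed lines at a 2-fold change. MCL1 at 3650 and BID at 507 are the probes whose intervals leave out 0, at -1.01 and 0.40, and the open point at 2.04 is the dim BCL2L1 probe.

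Among the BH3-only members, BID links death receptors to mitochondria after it is cleaved by caspase 8. At position 507 it gave 38.2 and 40.4 in high-fertile pools, against 53.6 and 44.7 in low-fertile pools. Both low-fertile values lay above both high-fertile values, by 0.40 log2 (SE 0.142, interval 0.05 to 0.76), with an unadjusted p of 0.0320 and an adjusted p of 0.0887 in limma. The difference passed the test (adjusted p = 0.0471) when the fit was restricted to probes marked on all 4 arrays, in which 34.6% of probes were called. It shrank to 0.095 with normexp (adjusted p = 0.246) and to 0.091 with GC correction (adjusted p = 0.676), this probe having the highest GC content of the 17 (68.3%). Its sign was positive under all alternatives run, at 0.033 to 0.44. The 2 further BID probes did not show it. At position 727 the signal was 35.1, 31.7, 35.3 and 28.8 (difference 0.021 log2, adjusted p = 0.928). At position 185, where the 60 bases span 1872 bases of the genome, it was 20.1, 23.9, 24.5 and 19.9 (0.099 log2, adjusted p = 0.672). Groups overlapped for both, and neither was well above background on low-fertile pool 2. Their upper limits, 0.40 and 0.50 log2, lie near the value of the probe at position 507.

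BAD, which binds BCL2 and BCL2L1 when survival signalling falls away, had 3 probes with values slightly above 0. At position 674 the signal was 43.1 and 40.5 in high-fertile and 45.0 and 55.7 in low-fertile pools, which did not overlap (0.35 log2, SE 0.205, interval -0.16 to 0.86, adjusted p = 0.254). At position 877 it was 28.6, 22.2, 24.8 and 26.5 (0.11 log2, adjusted p = 0.701). At position 70 it was 35.5, 22.0, 25.8 and 32.6 (0.14 log2, adjusted p = 0.749), with more spread within groups than between them. None of these passed the test, and the interval at position 70 was the widest of them, at -0.60 to 0.88. BCL2L11 encodes BIM, a BH3-only protein with a wide reach over survival members. Its 1 probe gave 5.17, 8.48, 5.53 and 6.35, not well above background on any array, and it was not tested.

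The rest of the pathway was counted from lists of 49 further genes, of which 47 are on the array and 27 were tested by their brightest probe. By that probe 25.9% of all 16549 genes passed (9.6% higher and 16.3% lower in low-fertile pools). Of the 27, 1 was higher, 5 were lower and 21 did not pass an adjusted p of 0.05, and their median difference was -0.17 log2. At an unadjusted p of 0.05 the count was 11, against 40.8% of all genes. On the same footing 0 of the 7 tested member genes passed, with a median of 0.20.

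Closest to the members are the other BCL2-type proteins. Of the other survival genes, BCL2L12 was tested (236, 235, 193 and 193; -0.20 log2, adjusted p = 0.349). The brightest probe of BCL2L2, a survival protein needed for spermatogenesis, was above background on 1 array alone. It read 17.2, 7.65, 33.6 and 33.8, and its measured level was 3.11-fold higher in low-fertile pools. A dimmer BCL2L2 probe read 24.7, 31.8, 11.49 and 8.73 and was above background on the high-fertile arrays alone, which admitted it to the test. Its measured level was 2.64-fold lower in low-fertile pools (limma adjusted p = 0.00599). These BCL2L2 probes thus gave opposite directions, each with 1 group not above background. None of 3 tested multidomain genes passed. BOK, the effector related to BAX and BAK1, read 99.2, 107 and 113 on 3 arrays and 963 on low-fertile pool 2, where its spot lay on a patch of bright neighbours (1.77 log2, adjusted p = 0.234).

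Of 6 other BH3-only or BH3-like genes tested, 1 passed and was lower. That was BNIP3L, a receptor for the removal of mitochondria, at 95.6 and 89.5 in high-fertile and 36.5 and 27.8 in low-fertile pools (-1.45 log2, SE 0.156, adjusted p = 0.00378). BBC3, which encodes the p53 target PUMA, was steady at 161, 173, 173 and 169 (0.12 log2, adjusted p = 0.563). BIK, detected in low-fertile pools only, was 1.88-fold higher there by its measured signals (limma adjusted p = 0.0635). It entered the test through the low-fertile arrays, where it is high. BCL2L10 and HRK carry no probe by those names.

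Downstream of the mitochondria, neither of the 2 tested genes for released mitochondrial proteins reported here passed, namely DIABLO, which frees caspases from their inhibitors (-0.62 log2, adjusted p = 0.0562), and AIFM1, which encodes the apoptosis-inducing factor (-0.28 log2, adjusted p = 0.289). None of 4 outer-membrane genes passed, with a median of -0.30 log2, and none of the 5 inhibitor of apoptosis genes was bright enough to test. Of 11 tested upstream genes, 4 were lower and 1 higher. PIM1, a kinase that phosphorylates BAD, was at 82.7 and 97.3 in high-fertile and 29.5 and 16.9 in low-fertile pools (-1.92 log2, adjusted p = 0.00524). USP9X, the enzyme that spares MCL1 from degradation, gave -1.13 log2 (adjusted p = 0.0103). TMBIM6, an inhibitor of BAX-driven death in the endoplasmic reticulum, gave -0.93 (adjusted p = 0.00938), and BAG4, a chaperone partner, -0.92 (adjusted p = 0.00861). CASP2, an initiator caspase that can cleave BID, was the higher one, at 26.3, 30.2, 43.2 and 41.2 (0.67 log2, adjusted p = 0.0291). PIM1, USP9X and BAG4, like BNIP3L and DIABLO, were not well above background on low-fertile pool 2. They thus entered the test through the high-fertile arrays, where they are high. With probes marked on all 4 arrays as the filter, the count of 6 called pathway genes became 3, of which TMBIM6 and CASP2 were shared. With GC correction TMBIM6 gave -0.47 log2 (adjusted p = 0.0705) and CASP2 0.45 (adjusted p = 0.0855), so neither passed. CASP2 also did not pass with normexp (adjusted p = 0.0582), the spike-in shift (adjusted p = 0.150) or local spatial correction (adjusted p = 0.182). Over the alternatives that kept all 4 pools, PIM1 ran from -2.29 to -0.74 log2 and BNIP3L from -1.82 to -0.78. USP9X ran from -1.51 to -0.59, BAG4 from -1.29 to -0.27, TMBIM6 from -1.30 to -0.47 and CASP2 from 0.18 to 0.70. With no filter, the weaker scanner mark or the t-test of the study's methods, none of the 6 passed, and neither did any other probe on the array.

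The calls were counted again with each pool left out, which leaves 1 array in a group and takes its spread from the other. The count of 6 became 4 and 3 when high-fertile pool 1 or 2 was left out, and 7 and 5 when low-fertile pool 1 or 2 was. Over the whole array the called probes went from 5632 to 2872, 2644, 4987 and 3889 in the same order. PIM1 and BNIP3L had adjusted p-values of at most 0.0321 and 0.0251 in these 4 fits. CASP2 did not pass when any one of the 4 pools was left out (adjusted p = 0.0525 to 0.135), at differences of 0.58 to 0.76 log2. USP9X did not pass without high-fertile pool 1 (-0.98 log2, adjusted p = 0.0533). TMBIM6 (-0.86 log2, adjusted p = 0.0578) and BAG4 (-0.93 log2, adjusted p = 0.0504) did not pass without high-fertile pool 2. These kept their direction when a pool was left out, at differences close to those with 4 pools.

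**Figure D3:**
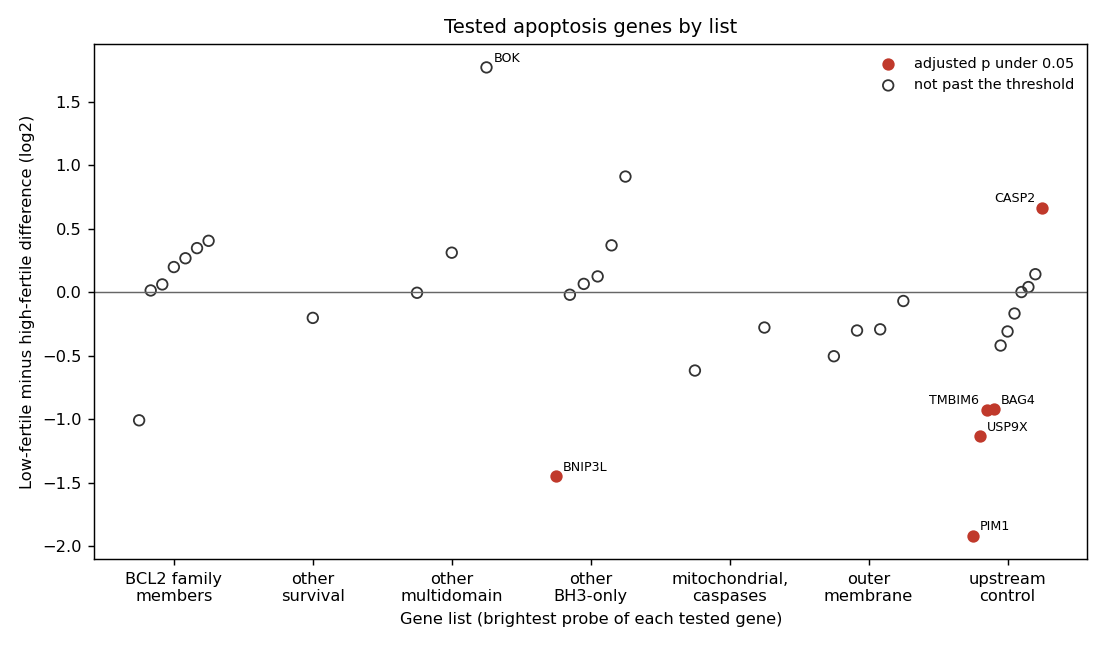
Low-fertile minus high-fertile difference (log2) of the brightest probe of each tested gene, by list, with filled points past an adjusted p of 0.05 and open points not. The 7 member genes have no filled point, and the filled points of the other lists run from -1.92 for PIM1 to 0.67 for CASP2, with BOK open at 1.77.

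The member probe with the highest mean log2 signal over the arrays, that of BAX, was set against 4607 annotated genes well above background on all 4 arrays. Likeness was the root mean square distance between centred log2 profiles over the 4 arrays. The nearest were ARHGAP35 (0.0183), ADAL (0.0287), MX1 (0.0306), NOXA1 (0.0320) and CKAP2L (0.0385), and 110 genes lay within 0.1. With so few arrays, a flat profile has many neighbours.

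**Figure D4:**
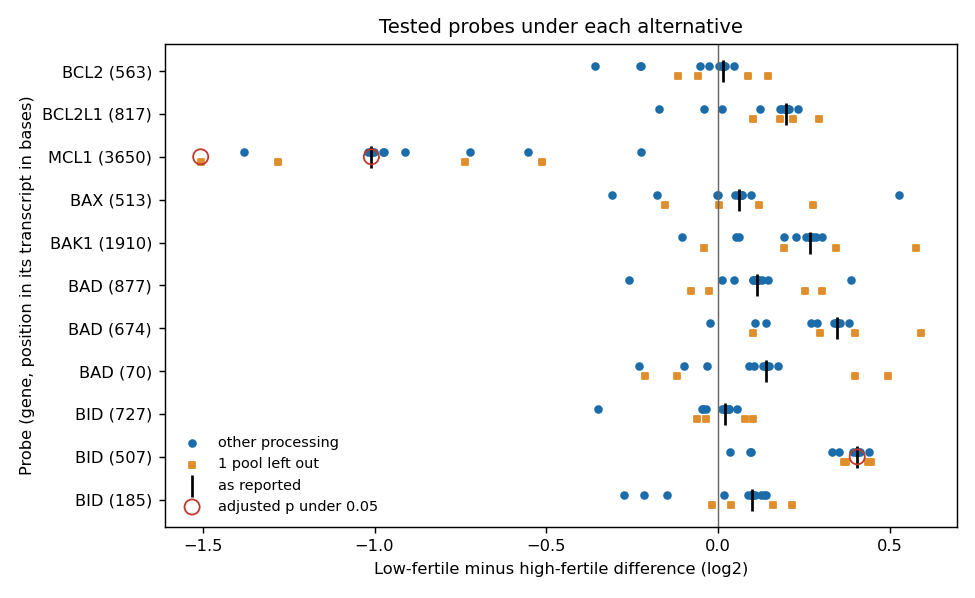
Low-fertile minus high-fertile difference (log2) of the 11 tested member probes as reported (black bar), under other processing (blue) and with 1 pool left out (orange), with red rings where the adjusted p was under 0.05. Rings appear for MCL1 at 3650 and BID at 507 alone, and the values of every other tested probe lie on both sides of 0.

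The signs of the small differences were not stable. With each array shifted to its spike-in probes instead of the 75th percentile, 9 of the 10 positive member differences turned negative, from -0.36 for BCL2 to -0.024 for BAD at position 674. That setting moved the median over all probes to -0.38 log2, and the member median to -0.26. BID at position 507 and MCL1 at position 3650 kept their signs, at 0.033 and -1.38.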

How the data were processed

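Sperm RNA of 2 high-fertile and 2 low-fertile pools was measured with 1 dye. Images were extracted by the authors with Feature Extraction 11.5.1.1 and shifted by the 75th percentile in GeneSpring GX 12.6. The deposited scanner output holds background-subtracted intensities with marks of other kinds (above background, saturated, outlier), and the deposited value table holds log2 values. Here log2 processed signals, without outlier spots, were shifted by each array's 75th percentile over non-control probes, and 21033 probes were fitted in limma 3.58.1 (R 4.3.3) without a block. A mark needed at least 0.5 of a probe's spots. Array number limits precision. In simulated data with 200 of 21024 probes changed, the fit recovered 3.6% of changes of 1 log2 and 84.8% of changes of 2 log2. Those 200 are a far smaller part of the probes than the 26.8% called here, so recovery in these data was not measured. Member accessions matched RefSeq symbols (ARS-UCD2.0) for 16 of 17 probes, and coordinates are the files' own.

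All member probes were named, plus up to 12 pathway genes past an adjusted p of 0.05; 2 genes of the lists are not reported here and were left out of their counts. Members and lists were chosen with earlier results of these data known. The p-values measure the spread between these pools only. The 22 alternatives were another 75th percentile set, normexp, quantile, cyclic loess and spike-in scaling, 3 other filters, a floor, outlier spots kept, a replicate block, an intensity trend, the methods' t-test, the deposited value table, local spatial correction, bright patches left out, GC correction, each pool left out, and the median over a gene's tested probes. Those that changed the call or sign of a tested member probe or a called pathway gene are given above or in the closing section. The GC correction was chosen after seeing the data.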

Additional observations from a re-analysis of the deposited data

How the results depend on the processing

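The count of 0 member probes past the threshold became 1 under 2 other settings (BID at position 507 with probes above background on all 4 arrays; MCL1 at position 3650 with a replicate block, adjusted p = 0.0153) and was 0 to 1 with a pool left out. Same-numbered pools did not deviate together (r = 0.00548 over 21024 probes), so the number was not taken as a pairing. The count of 6 pathway genes was 14 (5 shared) with the spike-in shift (34.8% of all probes called), 3 (2 shared) of 14 tested with probes above background on all 4 arrays (34.6%), 0 with no filter, with the weaker scanner mark and with the methods' t-test (0 of all probes called in each; 9, 12 and 7 pathway genes at an unadjusted p of 0.05), and 3 to 7 with a pool left out. The member median was 0.011 with normexp, -0.26 with the spike-in shift, 0.23 with probes above background on all 4 arrays, -0.044 with GC correction and -0.060 to 0.28 with a pool left out.

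BCL2 minus BAX was -0.24 to 0.14 with a pool left out (0.094 when high-fertile pool 2 was dropped and 0.14 when low-fertile pool 1 was) and -0.76 with a local spatial correction, under which BAX alone gave 0.53. MCL1 at position 3650 was -0.23 with normexp and -0.55 with GC correction, and BID at position 507 was 0.095 and 0.091. Small differences turned sign, none past the threshold. With normexp BCL2 gave -0.027, BAX -0.0021, BAD at position 70 -0.034 and BID at position 727 -0.048, and with cyclic loess BCL2 gave -0.052 and BID at position 727 -0.034. With the spike-in shift BCL2 gave -0.36, BCL2L1 at position 817 -0.17, BAX -0.31, BAK1 -0.10, BAD -0.26, -0.024 and -0.23 (positions 877, 674 and 70), and BID -0.35 and -0.27 (727 and 185). With local spatial correction BCL2 gave -0.23 and BID at position 185 -0.15. With GC correction BCL2 gave -0.23, BCL2L1 -0.041, BAX -0.18, BAD at position 70 -0.099, and BID -0.044 and -0.21 (727 and 185). With a pool left out the ranges were -0.12 to 0.14 for BCL2, -0.15 to 0.28 for BAX, -0.041 to 0.58 for BAK1, -0.079 to 0.30 and -0.21 to 0.49 for BAD (877 and 70), and -0.060 to 0.10 and -0.017 to 0.21 for BID (727 and 185). The cause was not tested. Of 226 values of the tested probes over the alternatives, 189 kept sign and side, 3 newly passed and 34 changed sign. Of 122 values of the named pathway genes, 92 kept both and 30 lost the call. Signal over background kept 6 of 17 member probes out of the test.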

Other observations

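Outside the gene names, 2 probes carry a member in their description and were chosen after their values were seen. A probe described as BCL2 under a clone-cluster name (TC426995, Btau_3.1 chr24:64216510-64216569, minus strand) gave 40.2 and 54.3 in high-fertile and 56.8 and 50.5 in low-fertile pools (0.28 log2, limma adjusted p = 0.300). A probe described as BID under an Ensembl transcript name gave 30.8, 27.8 and 30.6 on the first 3 arrays and 91.7 on low-fertile pool 2 (0.94 log2, adjusted p = 0.251), and its groups overlapped.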
